A study of Drosophila melanogaster with 30 samples.

Results

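Among the 15744 probes of a spotted Drosophila melanogaster array, 141 gave a value in the central nervous system (CNS) and almost none in the whole pupa. They were chosen by where a value was deposited: on at least 17 of 18 CNS or brain arrays, and on at most 1 of 8 whole-body arrays. In all, 3659 probes had a value on at least 17 of the 18 CNS arrays. Of these, 2368 also had one on at least 7 whole-body arrays and served as the comparison, called probes measured in both tissues. The converse pattern, at least 7 whole-body values and at most 1 CNS value, was found for 413 probes. The rule used the presence of values and not their size or sign. The filter behind a missing value is not given in the sources used here, so a missing value is not a level of 0.

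Each array held 2 RNA samples, 1 carrying Cy5 and the other Cy3, and every experiment was run in both dye orientations. The sex experiment (4 arrays) set the CNS of Canton S males against that of Canton S females, aged 48 h from puparium formation. On 6 arrays the CNS of fru P1 mutant males was set against that of wild-type males at 48 h: w; fru-w12/fru-ChaM5 against w; Berlin on 3, and fru-440/fru-P14 against Canton S on 3. The same allele pairs and controls were compared in whole male pupae at 48 h on 8 arrays, 4 for each pair. Males with fru P1-GAL4; uas-EcRA RNAi were compared with fru P1-GAL4; + males at 3 ages, with 4 arrays for each: 0 h, 48 h, and adults no older than 24 h, so both samples of these arrays carried the driver. The driver is active in the cells that use the fru P1 promoter, while the RNA came from whole dissected tissue. CNS samples pooled about 20 brains with ventral nerve cords, the RNAi samples at 48 h and in adults about 20 brains, and whole-body samples about 30 pupae.

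The fruitless gene (fru) makes, from its P1 promoter, the male-specific zinc-finger transcription factors FRUM in a subset of neurons, and these are needed for male courtship behaviour. The ecdysone receptor (EcR) is a nuclear receptor that, with its partner ultraspiracle, regulates transcription in response to the moulting hormone ecdysone, and its isoform EcR-A is expressed in many neurons as the CNS is remodelled during metamorphosis. The files do not pair the probes with genes, so members are named by probe ID, and no defining marker of neurons, glia or another tissue could be read from them.

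Tissue was not the only difference between the 2 sets of arrays. Per the labels' protocols, RNA from the CNS went through amplification to dye-coupled cRNA, and whole-body cDNA was labelled directly, so tissue and labelling cannot be told apart in the pattern that defines the members. Each of the 18 CNS and brain arrays held values for between 5652 and 10598 of the 15744 probes, and the whole-body arrays for between 5729 and 11533. Signs below are those of the deposited log2 ratios, in which 1 unit is a 2-fold difference; the sources used here do not settle which sample a positive ratio favours. Within an experiment, all arrays were taken to have been given the same direction by the authors. The number of arrays limits the precision. In bulk tissue, fewer cells of a type and less RNA per cell cannot be told apart.

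Membership was spread over both limits of the rule. All 18 CNS arrays had a value for 80 members and 17 had one for 61. No whole-body array had a value for 80 members, and 1 had one for 61. Both limits were met without slack by 30 members, with 17 CNS values and 1 whole-body value, while 49 had all 18 and none. Just outside, 81 probes had 2 whole-body values, and 61 had 16 CNS values with at most 1 whole-body value. On the log2 scale, the median size of a ratio over the CNS arrays was 0.293 for members with 1 whole-body value, 0.275 for those with none and 0.274 for the 81 probes with 2. It was 0.291 for members with 17 CNS values, 0.275 for those with 18 and 0.278 for the 61 probes with 16. Ratios thus had similar sizes on either side of the limits.

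The absent values were not spread evenly over arrays. Of the 61 members without a value on 1 CNS array, 21 lacked it on replicate 6 of the fru CNS experiment, which gave a value for 120 of the 141, against 135 to 141 on the other 5 arrays of that experiment. That array was low for all probes, with 6228 values against 8418 to 10598 on the other 5, and for the probes measured in both tissues, of which it gave a value for 89.9% against 98.9% to 99.8%. Of the 61 whole-body values, 33 came from replicate 7 and 14 from replicate 8, both of the fru-w12/fru-ChaM5 pair. The fru-w12/fru-ChaM5 arrays supplied 55 of the 61 values and the fru-440/fru-P14 arrays 6. Replicate 7 was also the whole-body array with the most values over all probes, 11533, although replicate 6, with 11017, supplied 7 member values.

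These 61 values were the whole-body ratios of the members, 1 per probe, and too few for a test of any member. They ran from -1.48 to 1.1, with a median size of 0.39 on the log2 scale, and 41 of them were negative. On replicate 7 the 33 members had a median ratio of -0.276, and 23 were negative. The probes measured in both tissues had a median ratio of 0.1 on that array. Over all probes there the median was -0.003, and 5798 of 11533 values were negative. The median size on that array was 0.431 for the members, 0.267 for the probes measured in both tissues and 0.312 over all probes. On replicate 8 the 14 members had a median of -0.159, against 0.074 for the probes measured in both tissues and -0.016 over all probes. Only 4 of the 61 exceeded 1 log2 unit in size.

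The 4 arrays of the RNAi experiment at 48 h took no part in the rule, although they too held brain RNA labelled as cRNA. They gave a value for 107, 76, 82 and 119 of the 141 members on replicates 1, 2, 3 and 4. The shares were 75.9%, 53.9%, 58.2% and 84.4%, each below the share of the probes measured in both tissues, which was 86.6%, 79.6%, 79.2% and 94%. Over all probes they were 35.3%, 25%, 27.9% and 35.4%, each below the share of the members. All 4 arrays gave a value for 43.3% of the members, for 54.2% of the 1150 probes with at least 17 CNS values and 2 to 6 whole-body values, and for 68.2% of the probes measured in both tissues. Over all 15744 probes the share was 20%. The difference between these shares was not tested. No array of this experiment gave a value for 11 members (7.8%), against 3.89% of the probes measured in both tissues and 58% of all probes.

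On replicate 1 of that experiment, the only 1 of the 4 on a log2 scale, the 107 members had an SD of 0.368 log2 units over probes and the probes measured in both tissues one of 0.418. The deposited values of the other 3 arrays form a score of unknown scale. On replicate 2 the median score of the members was -0.59 against 0.457 for the probes measured in both tissues, on replicate 3 it was 1.06 against -0.06, and on replicate 4 it was 0.11 against 0.235. The members lay lower on replicates 2 and 4 and higher on replicate 3, and no fold difference is given for these scores.

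Members were spread unevenly over the rows of the source plates. Each probe ID was read as a plate number, a row letter from A to P and a column number, on 41 plates of 384 wells. Members came from 37 of the 41 plates, with at most 9 on 1 plate, and the columns held between 0 and 13. By row they followed a repeat of 4. Rows B, F, J and N held 3, 3, 2 and 2 members, together 10 of the 141. Rows C, G, K and O held 16, 12, 18 and 14, together 60. Rows A, E, I and M held 30 and rows D, H, L and P held 41. The sets of rows were formed after these counts were seen, and no test was made.

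**Figure D1:**
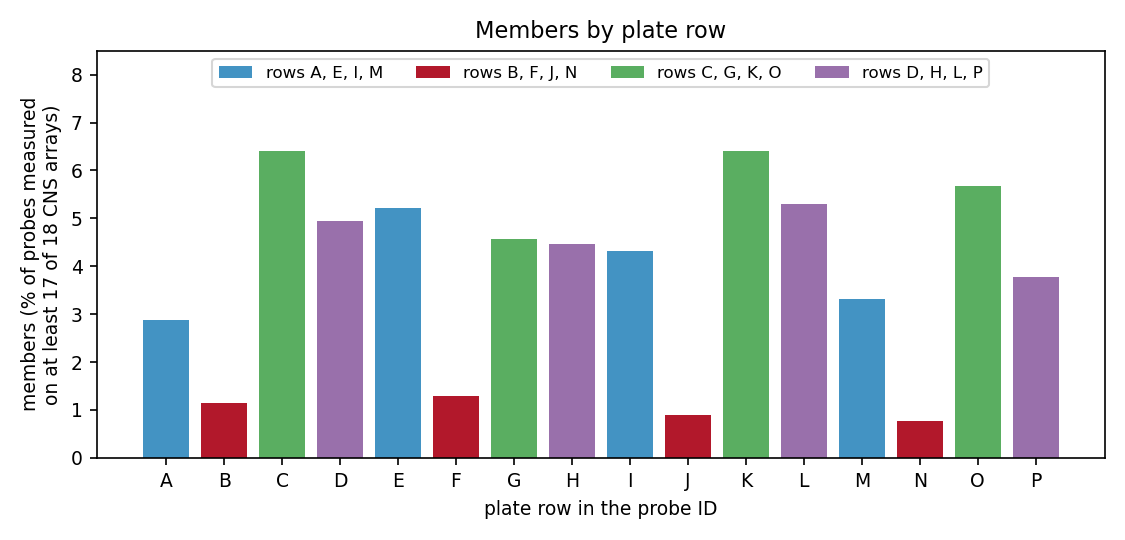
Members as a percentage of the probes with a value on at least 17 of the 18 CNS arrays (vertical axis), for each plate row in the probe ID (horizontal axis), with colours marking rows that are 4 apart. Rows B, F, J and N lie between 0.778% and 1.3%, below the other 12 rows, which lie between 2.87% and 6.41%.

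The row pattern held relative to the probes that were well measured in the CNS. Of these, 1.03% were members in rows B, F, J and N, 3.94% in rows A, E, I and M, 4.64% in rows D, H, L and P, and 5.76% in rows C, G, K and O. The share of whole-body spots with a value also differed by row: 60.4% in rows B, F, J and N, 56.3% in rows C, G, K and O, 52.8% in rows A, E, I and M, and 47.3% in rows D, H, L and P. For the CNS arrays the shares were 48.3%, 49.9%, 45.2% and 46.7% in the same order. Rows B, F, J and N were thus the best measured on whole-body arrays and held the fewest members. Rows C, G, K and O held the most members without being the worst measured there. Among the CNS and brain experiments the shares were 48.5%, 50.3%, 48.1% and 50.1% for sex, 56.1%, 57.2%, 53.9% and 56.6% for fru, 40.9%, 43.4%, 36.2% and 36.9% for RNAi at 0 h, and 44%, 45.1%, 38.2% and 38.1% for RNAi in adults. Shares thus also differed by row on the RNAi arrays at 0 h and in adults, by more than in the sex experiment. The part of plate position in the choice of members was not tested.

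Ratios of the members were spread about as widely as those of probes measured in both tissues. Over the CNS arrays, the SD of a member's log2 ratios ran from 0.121 to 0.937, with a median of 0.391, and the median over probes measured in both tissues was 0.37. The residual SD, which remains after each experiment's effect and dye coefficient, had a median of 0.267 for the members (quartiles 0.216 and 0.347) and 0.261 for the probes measured in both tissues (quartiles 0.207 and 0.325). Values beyond 1 log2 unit made up 58 of 2477 member values (2.34%) and 2.04% of the values of probes measured in both tissues. At least 1 such value was found for 38 of the 141 members (27%) and for 22.5% of the probes measured in both tissues.

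The order of the SDs of members and of probes measured in both tissues changed with the experiment. On 11 of the 18 arrays the SD over members was the higher. In the sex experiment it was lower on all 4 arrays, at 0.398, 0.404, 0.369 and 0.336 against 0.435, 0.416, 0.392 and 0.403. In the RNAi experiment at 0 h it was higher on all 4, at 0.563, 0.375, 0.349 and 0.477 against 0.431, 0.327, 0.329 and 0.428. Replicate 1 at 0 h had the widest gap and held 13 member values beyond 1 log2 unit, against 4, 1 and 7 on replicates 2, 3 and 4. As shares these were 9.49%, 2.86%, 0.725% and 5.11% of the members, 2.97%, 0.98%, 0.685% and 3.04% of the probes measured in both tissues, and 4.53%, 1.46%, 2.32% and 5.71% of all probes. On replicates 3 and 4 the members were below all probes in these shares and also in SD (0.349 and 0.477 against 0.39 and 0.541). On replicates 1 and 2 the SD over members was above that over all probes (0.563 and 0.375 against 0.493 and 0.352). In the fru CNS experiment the SD over members was higher on 4 of 6 arrays, and in adults on 3 of 4.

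**Figure D2:**
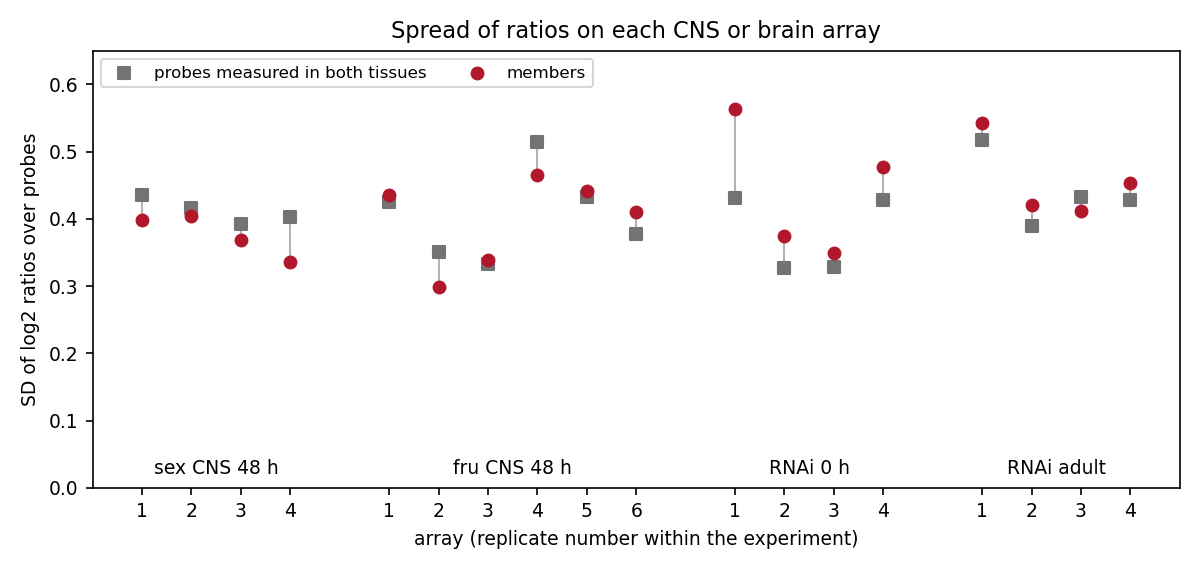
SD of the log2 ratios over probes (vertical axis) on each of the 18 CNS and brain arrays, by experiment and replicate (horizontal axis), for the 141 members (red circles) and the 2368 probes measured in both tissues (grey squares). The circles lie below the squares on all 4 arrays of the sex experiment and above them on all 4 arrays of the RNAi experiment at 0 h, with the widest gap on replicate 1 at 0 h (0.563 against 0.431).

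Few members passed the test in any comparison. All 141 could be tested in each of the 4 experiments, and the fit over all probes with limma (Benjamini-Hochberg adjusted p under 0.05) called 2 effects among them: DAC019P10 in the RNAi experiment at 0 h and DAC039D08 in the fru CNS experiment. Fitted effects were small. Their median size was 0.0994 log2 units in the sex experiment, 0.109 in the fru CNS experiment, 0.0952 in the RNAi experiment at 0 h and 0.0905 in adults. For probes measured in both tissues it was 0.1, 0.1, 0.0985 and 0.082, and over all probes tested 0.111, 0.115, 0.106 and 0.0925. The 95% interval of the effect lay within 1 log2 unit of 0 for 140, 140, 138 and 139 of the 141 members in the same order, with a median half-width between 0.246 and 0.298. These intervals leave out the gap between dye orientations, which the dye coefficient takes up. The counts rest on taking the arrays of an experiment to share 1 direction: read as Cy5 over Cy3 on every array, 14, 35, 20 and 45 members passed in the same order (9.93%, 24.8%, 14.2% and 31.9%). In that reading 10.7%, 26%, 8.12% and 30.6% of all probes tested passed, and 16.3%, 33.5%, 8.02% and 28.8% of the probes measured in both tissues.

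**Figure D3:**
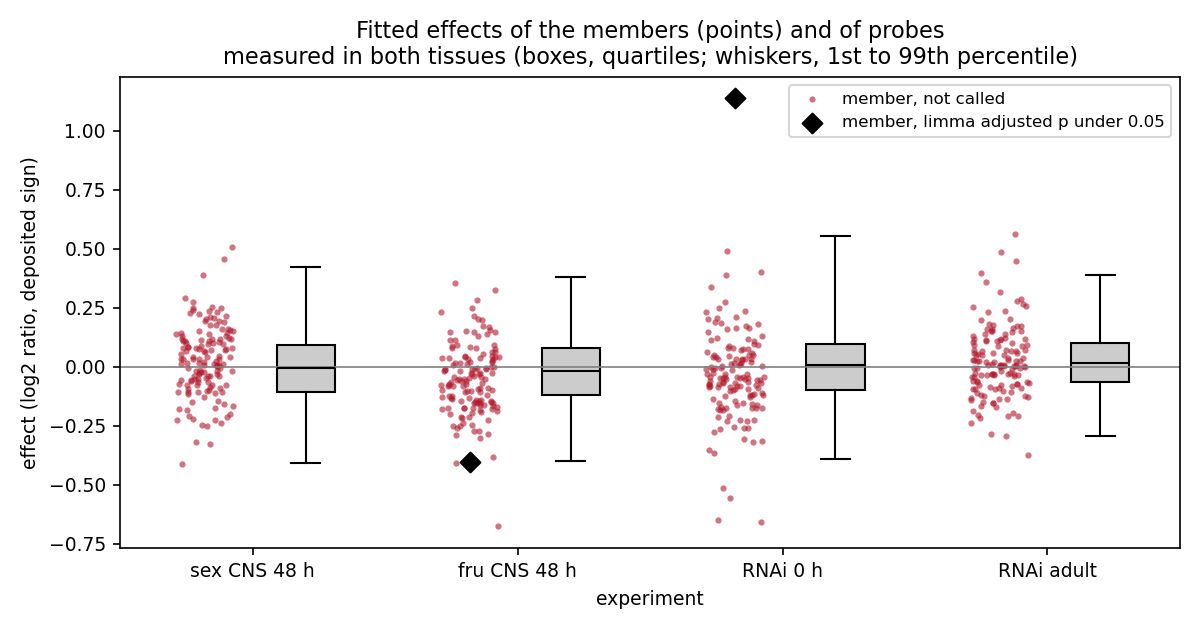
Fitted effect of each member as a log2 ratio with the deposited sign (points), in the 4 CNS and brain experiments, beside boxes for the probes measured in both tissues (quartiles, with whiskers from the 1st to the 99th percentile). Diamonds mark the 2 called members, DAC019P10 at 1.14 in the RNAi experiment at 0 h and DAC039D08 at -0.40 in the fru CNS experiment. Most other points lie near 0, but members that were not called reach -0.68 in the fru CNS experiment and -0.66 in the RNAi experiment at 0 h.

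The sex experiment asked which CNS transcripts differ between males and females midway through metamorphosis. No member of the 141 passed, against 0.607% of the 7414 probes tested, and 3 of the 2368 probes measured in both tissues passed (0.127%). Before adjustment, 5 members had a limma p under 0.05 (3.55%), against 7.59% of all probes tested. Effects of the members ran from -0.41 to 0.51, and 59 of the 141 were negative (41.8%). This share was 51.9% without replicate 1 (135 members tested) and 51.9% without replicate 3 (133 members tested). Probe DAC007L08 had the smallest p on the positive side, with ratios of 0.54, 0.30, 0.85 and -0.13 on replicates 1 to 4. Its replicate 4 had the opposite sign, and its effect was 0.39 ± 0.171 (SE, n = 4, limma adjusted p = 0.608), which became 0.14 without replicate 3 and 0.63 without replicate 4. On the negative side DAC032J19 had ratios of -0.24, -0.10, -0.42 and -0.50. All 4 of its arrays were negative, and its effect was -0.32 ± 0.128 (SE, n = 4, limma adjusted p = 0.5). Of the members, 9 had 1 sign on every array of this experiment (6.38%), as did 8.19% of the probes measured in both tissues and 11.6% of all probes tested.

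The fru CNS experiment addressed the transcripts that differ in the male CNS when fru P1 is mutant. Here 1 of the 141 members passed (0.709%), against 0.858% of the 7461 probes tested and 0.633% of the probes measured in both tissues. Before adjustment, 20 members had a limma p under 0.05 (14.2%), against 13% of all probes tested and 10.4% of the probes measured in both tissues. Ratios of 1 sign on every array with a value were found for 10 members (7.09%). The share was 4.77% for the probes measured in both tissues and 5.75% for all probes tested. In this experiment each allele pair had 1 dye orientation, so pair and dye cannot be told apart. The called member, DAC039D08, had ratios of -0.50, -0.80 and -0.54 for fru-w12/fru-ChaM5 and of -0.09, -0.32 and -0.17 for fru-440/fru-P14. All 6 arrays were negative, and the values of the pairs did not overlap. Its effect was -0.40 ± 0.0846 (SE, n = 6, 1.32-fold, limma adjusted p = 0.037). The call ended in the fit of this experiment alone (limma adjusted p = 0.0968), with arrays centred and scaled (0.0762), with ratios read as Cy5 over Cy3 (0.0785), without the dye coefficient (1), and without replicate 2, 3, 4 or 5 (between 0.0855 and 0.199). It held with robust eBayes (0.036), over probes with all 18 values (0.0263) and without replicate 1 (0.0351) or 6 (0.0435), and the effect lay between -0.43 and -0.36 in all these fits except the reading as Cy5 over Cy3 (-0.21).

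The other experiments put that value of DAC039D08 beside a wide split by dye. Its ratios were -0.29 and -0.42 against 0.90 and 0.75 in the sex experiment, -0.52 and -0.81 against 0.99 and 1.29 in the RNAi experiment at 0 h, and -0.90 and -0.65 against 0.95 and 1.16 in adults, each time with the female or RNAi sample in Cy5 first and in Cy3 second. The orientations did not overlap in any of these experiments, and its SD over the CNS arrays, 0.768, was the third highest among the members. Its 1 whole-body ratio, on replicate 8 of the fru-w12/fru-ChaM5 pair, was -0.51.

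On the positive side of the fru CNS experiment DAC034H01 had ratios of 0.17, 0.27 and 0.28 for fru-w12/fru-ChaM5 and of 0.24, 0.11 and 1.06 for fru-440/fru-P14. All 6 were positive, and replicate 6 lay far above the rest. Its effect was 0.36 ± 0.121 (SE, n = 6, limma adjusted p = 0.211), and 0.21 without replicate 6. The ratios of the members in this experiment lay more often below 0 than above: 95 of 141 effects were negative (67.4%), against 55.5% of the probes measured in both tissues and 58.3% of all probes tested. With ratios read as Cy5 over Cy3 the shares were 49.6%, 42.6% and 46.1%. The median effect was -0.059 log2 units for the members, -0.019 for the probes measured in both tissues and -0.033 for all probes tested.

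The RNAi experiments asked what EcR-A controls in the cells that use the fru P1 promoter. At 0 h 1 of the 141 members passed (0.709%), against 0.371% of the 5934 probes tested and 0.169% of the probes measured in both tissues. Before adjustment, 13 members had a limma p under 0.05 (9.22%), against 7.84% of all probes tested. Ratios of 1 sign on every array with a value were found for 18 members (12.8%). The share was 9.84% for the probes measured in both tissues and 11.9% for all probes tested. The called member, DAC019P10, had ratios of 1.98 and 1.31 with the RNAi sample in Cy5 and of 0.54 and 0.71 with it in Cy3. All 4 arrays were positive, and the orientations did not overlap. Its effect was 1.14 ± 0.209 (SE, n = 4, 2.2-fold, limma adjusted p = 0.0223), the only member effect beyond 1 log2 unit in any of the 4 experiments. The call ended in the fit of this experiment alone (limma adjusted p = 0.127), with ratios read as Cy5 over Cy3 (0.132), without the dye coefficient (0.829), and without replicate 1, 2 or 4 (0.665, 0.104 and 0.229). It held with arrays centred and scaled (0.00157), robust eBayes (0.0204), over probes with all 18 values (0.0105) and without replicate 3 (0.048), and the effect lay between 0.97 and 1.34 in all these fits except the reading as Cy5 over Cy3 (0.51).

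In adults DAC019P10 had ratios of -0.77, 0.87, 0.71 and 1.44 on replicates 1 to 4. Replicate 1 alone was negative, and the effect, 0.56 ± 0.209 (SE, n = 4, limma adjusted p = 0.998), was the positive member effect with the smallest p in adults. Single arrays moved it widely: it was 0.97 without replicate 1 and 0.15 without replicate 2. On replicate 1 at 48 h its ratio was -0.78. In the sex experiment its effect was 0.14 ± 0.209 (SE, n = 4, limma adjusted p = 0.941), and in the fru CNS experiment it was -0.15 ± 0.17 (SE, n = 6, limma adjusted p = 0.752). Whether its RNAi effects at 0 h and in adults differ was not tested.

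The member with the smallest p on the negative side at 0 h was DAC016C23, with ratios of -1.31 and -1.27 when the RNAi sample was in Cy5 and 0.18 and 0.18 when it was in Cy3. The sign followed the dye orientation, and the effect was -0.56 ± 0.155 (SE, n = 4, limma adjusted p = 0.221). In adults its ratios were -0.12, 0.22, -0.18 and 0.28, on both sides of 0. At 0 h 86 of the 141 member effects were negative (61%), against 48.6% of the probes measured in both tissues and 51.7% of all probes tested. With ratios read as Cy5 over Cy3 the shares were 58.2%, 50.8% and 49%. The median effect was -0.046 log2 units for the members and 0.006 for the probes measured in both tissues.

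In the adult brain no member passed, against 0.0501% of the 5992 probes tested, and none of the probes measured in both tissues did. Before adjustment, 4 members had a limma p under 0.05 (2.84%), against 3.79% of all probes tested and 2.83% of the probes measured in both tissues. On the negative side the smallest p belonged to DAC020O06, with ratios of -0.17, -0.33, -0.42 and -0.57. All 4 arrays were negative, and its effect was -0.37 ± 0.101 (SE, n = 4, limma adjusted p = 0.996). It was 1 of 2 members with 1 sign on every adult array (1.42%), against 3.25% of the probes measured in both tissues and 4.09% of all probes tested. At 0 h its ratios were 0.02, 0.21, -0.21 and -0.21, on both sides of 0.

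With the deposited signs, the dye coefficient, by which a ratio departs from the effect in either dye orientation, was larger than the effect for most members. It had a median size of 0.223 log2 units over members in the sex experiment, 0.193 in the fru CNS experiment, 0.218 at 0 h and 0.268 in adults. It was larger than the effect for 99, 90, 100 and 110 of the 141 members in the same order. With ratios read as Cy5 over Cy3 the coefficients change places, and the effect was the larger for these same numbers of members. With the deposited signs, the dye coefficient was larger than the effect for 70.2%, 63.8%, 70.9% and 78% of the members. The shares were 71.5%, 74.5%, 67.3% and 79% of the probes measured in both tissues, and 68.5%, 68.1%, 68% and 79.4% of all probes tested.

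**Figure D4:**
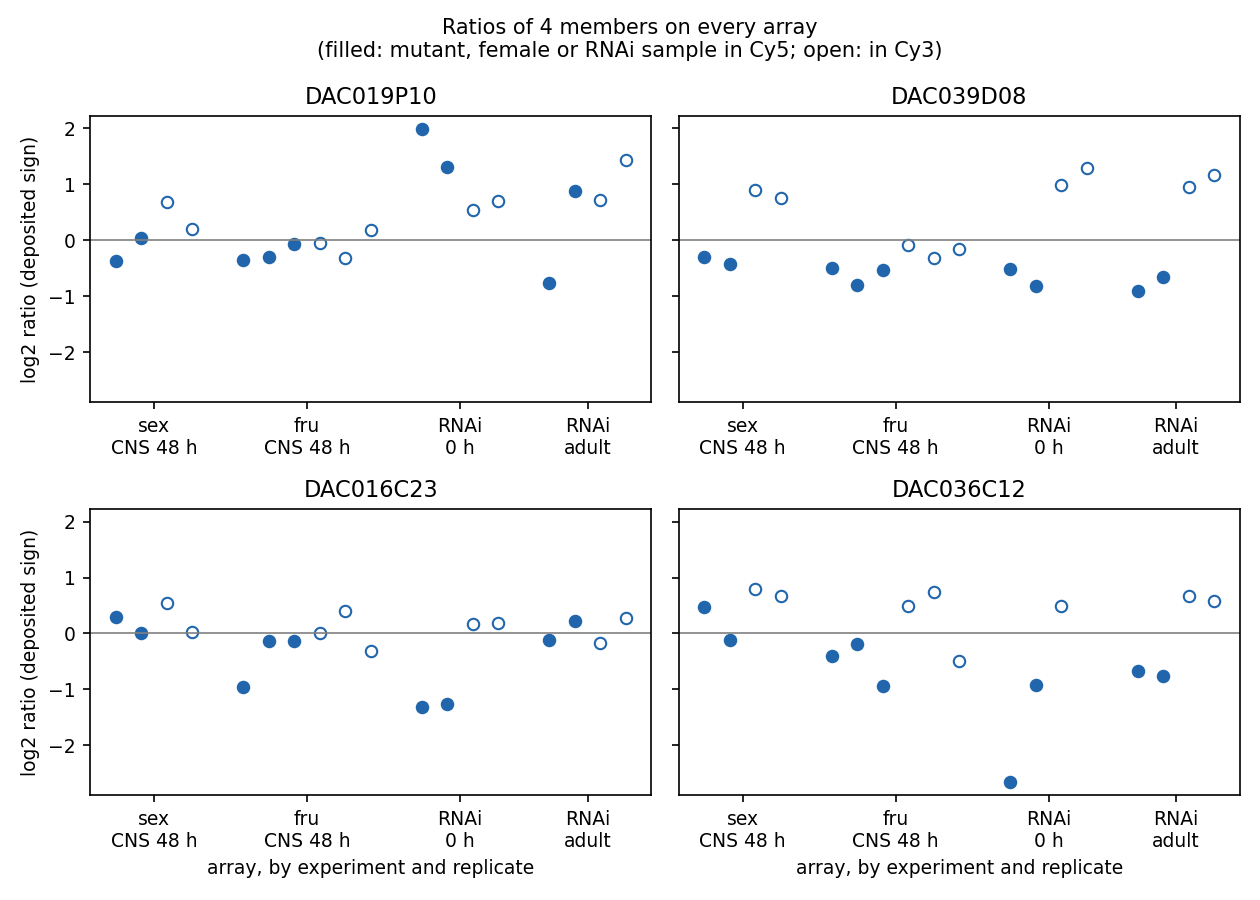
Log2 ratios with the deposited sign (vertical axis) of the members DAC019P10, DAC039D08, DAC016C23 and DAC036C12 on every CNS or brain array with a value, by experiment and replicate (horizontal axis); filled points have the mutant, female or RNAi sample in Cy5 and open points have it in Cy3. DAC019P10 is positive on all 4 arrays at 0 h (0.54 to 1.98), and DAC039D08 is negative on all 6 arrays of the fru CNS experiment (-0.80 to -0.09) but splits by dye in the others.

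The most and the least variable members show the range of this spread. DAC022D07 had the highest SD over the CNS arrays, 0.937, with ratios from -1.06 to 1.9 around a median of -0.02. At 0 h its ratios were -1.05 and -1.04 in 1 orientation and 0.46 and 1.00 in the other, and in adults they were 1.90, -0.80, -0.02 and 0.86. Next was DAC036C12, with an SD of 0.906 and a lowest ratio of -2.66 on replicate 1 at 0 h, where replicates 2 and 3 had -0.92 and 0.49. DAC030E05 varied least, with an SD of 0.121 and all 17 ratios between -0.24 and 0.23. It was followed by DAC026C06, with an SD of 0.151 and ratios between -0.28 and 0.29. DAC026C06 was negative on all 6 fru CNS arrays, with an effect of -0.17 ± 0.0787 (SE, n = 6, limma adjusted p = 0.383).

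No member moved by much in every experiment. The member whose smallest effect over the 4 experiments was largest, DAC029K06, stood at -0.17 ± 0.186 (SE, n = 3) for sex, 0.28 ± 0.124 (SE, n = 6) for fru, -0.51 ± 0.152 (SE, n = 4) at 0 h and -0.29 ± 0.152 (SE, n = 4) in adults. Its limma adjusted p lay between 0.28 and 0.998 in the 4 experiments. At 0 h its ratios of -0.98, -0.64, -0.02 and -0.41 were all negative, and in adults -0.54 and -1.15 stood against 0.38 and 0.17 in the other orientation. DAC014I03 was next, with effects of -0.16 ± 0.208 (SE, n = 4), 0.15 ± 0.17 (SE, n = 6), 0.19 ± 0.208 (SE, n = 4) and 0.23 ± 0.254 (SE, n = 3) in the same order. Each of its effects was smaller than its SE.

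Across the 141 members correlations between experiments, with the deposited signs, were lower for the effects than for the dye coefficients. Between the RNAi effects at 0 h and in adults Pearson's r was 0.293 (Spearman's rho = 0.221) over members and 0.327 (rho = 0.266) over the 2368 probes measured in both tissues. Between the sex and the fru CNS effects r was -0.0763 over members and -0.0433 over probes measured in both tissues. For fru CNS and RNAi at 0 h r was 0.0592 over members, against 0.185. The dye coefficients of the sex and fru CNS experiments had r = 0.818 over members and 0.724 over probes measured in both tissues, and those of the other pairs of experiments had r between 0.495 and 0.605 over members. With ratios read as Cy5 over Cy3 the values change places, and the effects had r from 0.495 to 0.818 over members. These correlations are across probes, which share arrays and are not independent replicates, and they are given as descriptions.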

How the data were processed

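The series matrix held 1 value per probe and array for 30 arrays of 6 experiments, with "null" where no value was given. The authors' tool was limma, per the submitters' processing notes; its version, the background correction, the normalization and the spot filter are not stated in the labels used. On 27 arrays the values deposited by the authors were centred near 0 and were taken as log2 ratios. On replicates 2, 3 and 4 of the RNAi experiment at 48 h the authors' deposited values had a much wider spread and were taken as a score, since no source says how they were scaled. The 4 arrays of that experiment were fitted only in the alternative with 22 arrays. Here 32 control spots were left out. The 18 arrays of the other 4 CNS and brain experiments were fitted together over all probes in limma 3.58.1 (R 4.3.3, lmFit and eBayes, two-sided), with 1 effect and 1 dye coefficient per experiment; the fit was tested on simulated data. Testing a probe in an experiment required values on 75% or more of its arrays and on 1 or more per dye orientation, and p-values were adjusted by Benjamini-Hochberg over all probes tested (threshold 0.05). Intervals are limma's 95% intervals. The replicates were separate biological samples, as the submitters' design text says.

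Named members were, per experiment, called members and the smallest p on each side of 0; over all arrays, those with the 2 largest and 2 smallest SDs and the 2 with the largest smallest effect. Members, limits and the naming rule were chosen with earlier results of these data known. Marker lists of neurons, glia, muscle, fat body, cuticle, trachea and imaginal tissue could not be applied without gene names. Alternatives were each experiment alone, ratios read as Cy5 over Cy3, no dye coefficient, robust eBayes, centred and scaled arrays, all 22 CNS and brain arrays, probes with all 18 values, 2 other limits for members, and each array left out.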

Additional observations from a re-analysis of the deposited data

Results flagged for a closer look

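Of 22 sets of 4 to 10 arrays examined, 3 held an array far from the rest by Dixon's test; chance flags about 1 in 20 sets. In the fru CNS experiment replicate 6 gave a value for 120 members, against 135 to 141 on the other arrays. On the whole-body arrays replicate 7 gave a value for 33 members, against 0 to 14 on the others. Both are counts of the values that the rule used to choose the members, so the rate of 1 in 20 does not apply to them. DAC034H01 stood at 1.06 on replicate 6 of the fru CNS experiment, against 0.11 to 0.28 on its other 5 arrays; without that array its effect was 0.21. The cause of these departures was not tested.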

How the results depend on the processing

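No paired analysis was possible because each comparison was made within an array, and no test compared experiments with each other. With ratios read as Cy5 over Cy3, members called were 14 (sex), 35 (fru CNS), 20 (RNAi at 0 h) and 45 (RNAi in adults), against 10.7%, 26%, 8.12% and 30.6% of all probes tested, with median effect sizes of 0.223, 0.193, 0.2182 and 0.2676. The fru CNS count of 1 became 0 with each experiment fitted alone, without the dye coefficient, with arrays centred and scaled, with all 22 arrays, and with members limited to 18 CNS and 0 whole-body values (49 probes). It became 2 over probes with all 18 values (80 members tested), and ran from 0 to 3 with each array left out. With members at 16 CNS and at most 2 whole-body values (318 probes) it was 3 of 313 tested. In that fit 0.858% of all probes tested passed. The count of 1 at 0 h became 0 with each experiment alone, without the dye coefficient, with all 22 arrays and with the 49 probes. It ran from 0 to 2 with each array left out. With the 318 probes it was 3 of 304 tested, where 0.371% of all probes tested passed. The sex count of 0 became 1 of 317 tested with the 318 probes, where 0.607% of all probes tested passed. Apart from the reading as Cy5 over Cy3, the share of all probes that passed was not computed in the alternative fits. Changes in their counts are therefore not set against all probes. The median residual SD of the members was 0.4025 without the dye coefficient, 0.4603 with all 22 arrays and 0.2163 with each experiment alone. For probes measured in both tissues it was 0.3822, 0.5264 and 0.2144 in the same order. The percentage of negative member effects crossed 50 in the sex experiment with each array left out (36.8 to 51.9; 51.9 without replicate 1 and without replicate 3), in the fru CNS experiment read as Cy5 over Cy3 (49.6), and in adults read as Cy5 over Cy3 (51.1), over probes with all 18 values (52.5), with the 49 probes (53.1), and with each array left out (44.8 to 54.1; 51.5 without replicate 1 and 54.1 without replicate 4). Read as Cy5 over Cy3, the effects of DAC032J19 (sex, 0.1441), DAC034H01 (fru CNS, -0.1132), DAC019P10 (adults, -0.512) and DAC020O06 (adults, 0.1212) changed sign, and DAC016C23 at 0 h passed (-0.73, limma adjusted p = 0.015). Of 89 alternative values for effects of named members, 68 kept direction and side of the threshold, 16 lost the call, 1 gained it and 4 changed sign. All losses belonged to DAC039D08 in the fru CNS experiment and DAC019P10 at 0 h, the only named effects with a call to lose. Each of these calls was lost in more of its alternatives than it was kept in. The fit with all 22 arrays puts the 3 arrays of unknown scale into the shared spread, so its lost calls follow from its construction. The cause of the other changes was not tested. With an array left out of an experiment of 4, a member needed values on all the others. Between 130 and 138 of the 141 members were then tested, so these counts and percentages also reflect a changed set of members. The 4 to 6 arrays per experiment, the unknown spot filter and the unsettled sign limit all comparisons.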
